A study of Rattus norvegicus with 9 samples.

Results

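The comparison described here is between cardiomyocytes given extra Yap1 and cardiomyocytes given green fluorescent protein (GFP), all in high glucose. It uses 6 of the 9 libraries of the study, 3 per group, chosen by their labels, and 13708 of the 18629 genes in the deposited table had enough reads to be tested. The cells were primary neonatal rat cardiomyocytes, isolated by enzymatic digestion from the hearts of newborn Sprague-Dawley (SD) rats. They were kept for 14 h in low serum and low glucose and then for 48 h in medium raised to 33 mM glucose, with insulin at 100 nM. The GFP group was infected with Adeno-GFP and the Yap1 WT group with Adeno-Yap1 WT, and both groups received the high glucose and insulin. The remaining 3 libraries came from cells infected with Adeno-Yap1 shRNA under the same medium, and a GFP group without the added glucose and insulin, which the labels also mention, was not analysed here. The labels give neither the amount of virus per cell, nor the species of the Yap1 cDNA, nor whether the 3 replicates of a group were separate cell isolations. P-values therefore measure the spread between these libraries, which may be technical.

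Yap1 encodes YAP, a transcriptional coactivator that carries no DNA-binding domain of its own and works mainly by binding TEAD factors. The Hippo kinases phosphorylate YAP and keep it in the cytoplasm, and when they are inactive YAP enters the nucleus. In the heart YAP is known for its role in growth of the fetal and newborn ventricle, and active YAP is known to move cardiomyocytes towards a less mature state.

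Yap1 itself was 197, 198 and 189.8 CPM (counts of a gene scaled to a common library size) in GFP libraries 1, 2 and 3 and 559, 812 and 622 CPM in Yap1 WT libraries 1, 2 and 3; all trios of values are in this order of libraries. Every Yap1 WT library was above every GFP library, and library 2 had the most. The log2 fold change was 1.77 ± 0.11 (SE, n = 3 per group), a 3.41-fold rise, with an edgeR adjusted p of 1.63e-08, and on log2(TPM + 1) the change was 2.89. Yap1 lies on chromosome 8 (chr8:6109474-6204240, minus strand, build rn6). In the Yap1 shRNA libraries its mean was 95.6 CPM, below GFP.

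The 10 cardiomyocyte markers (among them Tnnt2, Myh6, Ryr2 and Nkx2-5) were abundant in the GFP libraries, with a summed level of 28660 to 29230 CPM, and all 10 fell with Yap1 WT, to 4676 to 7224 CPM. The 10 fibroblast markers summed to 17950 to 19480 CPM with GFP and 12380 to 16630 CPM with Yap1 WT. Most of that sum was the collagens Col1a1 and Col3a1 (means of 12540 and 5227 CPM with GFP). Of the 10 markers 5 fell and 3 rose, so the sum does not describe them all. The cultures thus held RNA of both marker sets. In these bulk samples fewer cardiomyocytes and less of an RNA per cardiomyocyte cannot be told apart. Total reads assigned to genes ran from 14868180 to 15368473 per GFP library and from 10960051 to 11497104 per Yap1 WT library. Depth therefore differed with the group, and its part in the results was not tested beyond the choice of scaling.

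Of the genes tested, 63.8% passed an adjusted p of 0.05 (8751 genes), with 4391 higher (32%) and 4360 lower (31.8%) in Yap1 WT. At least 2-fold higher were 1260 genes (9.19%), and 1013 (7.39%) were at least 2-fold lower. With a stricter filter of 5 CPM in 3 libraries these counts were nearly even, 770 and 757. The largest changes in the main fit were mostly rises: 545 against 185 passed 4-fold, 174 against 13 passed 16-fold and 40 against 3 passed 100-fold. The 3 libraries of each group did not overlap for 70.7% of genes. With such a background, a list in which about 63.8% of members passed the test stands at the level of all genes, and the lists below are read against these shares and against the median log2 fold change of all genes, 0.003. Scaling by library size alone moved that median by 0.135, and a fit on that log2(TPM + 1) scale, where TPM is the transcript level per gene length and library total, moved it by 0.157. With those scalings 62.8% and 65.2% of the called genes were higher, against 50.2% in the main fit.

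Among the genes that rose most, the stretch just upstream of the start site held a sequence typical of interferon-stimulated genes more often than among genes at large. Sequences from RefSeq (build GRCr8) were searched over the 250 bases upstream of the start site, on both strands, for 10785 of the tested genes. The interferon-stimulated response element (ISRE) was spelled as GAAA, any 2 bases and GAAA again, the kappa-B site as GGG, any 2 bases, TT, any 1 base and CC, and the TEAD core as GGAATG, and the MEF2 element and the CArG box, which serum response factor recognises, were searched by their usual consensus; overlapping matches of one motif were counted as 1 gene with a match. The stretches below were chosen after the matches were known, to show what a match looks like in members of the lists that moved most. They are given 5′ to 3′ in the sense of the gene, with the matched bases in capitals. The first 5 hold ISRE matches.
Rsad2, chr6:48788238-48788287, minus strand: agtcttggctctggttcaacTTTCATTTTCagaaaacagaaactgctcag
Oas1a, chr12:41330405-41330460, plus strand: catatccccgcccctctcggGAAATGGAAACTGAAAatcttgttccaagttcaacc
Ifit3, chr1:241527262-241527311, plus strand: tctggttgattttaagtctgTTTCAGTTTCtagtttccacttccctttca
Irf7, chr1:205800063-205800112, minus strand: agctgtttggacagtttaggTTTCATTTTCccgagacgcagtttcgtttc
Ddx60, chr16:33208849-33208932, minus strand: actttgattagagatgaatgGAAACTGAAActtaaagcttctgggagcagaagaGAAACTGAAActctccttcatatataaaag
The next 3 hold kappa-B matches, from a cluster of neutrophil chemokines and from interleukin 6.
Cxcl1, chr14:17479376-17479443, minus strand: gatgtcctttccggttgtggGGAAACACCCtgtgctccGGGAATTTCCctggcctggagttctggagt
Cxcl2, chr14:17467280-17467349, minus strand: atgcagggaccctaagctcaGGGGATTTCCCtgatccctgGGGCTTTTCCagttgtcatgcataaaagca
Il6, chr4:5894614-5894663, minus strand: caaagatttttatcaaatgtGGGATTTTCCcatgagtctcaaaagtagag
The last 3 come from genes that fell: a cardiac kinase (Tnni3k) and a muscle cytochrome oxidase subunit (Cox6a2) with a MEF2 element, and a Z-disc protein (Ldb3) with a CArG box.
Tnni3k, chr2:246664991-246665040, minus strand: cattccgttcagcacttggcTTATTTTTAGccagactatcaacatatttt
Cox6a2, chr1:192219737-192219786, minus strand: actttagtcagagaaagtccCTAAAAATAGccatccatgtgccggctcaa
Ldb3, chr16:9924702-9924751, minus strand: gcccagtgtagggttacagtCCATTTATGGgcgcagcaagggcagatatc

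An ISRE match was present in 2.59% of all promoters searched (279 of 10785), in 8.83% of genes at least 2-fold higher and in 17.8% of genes at least 8-fold higher (37 of 208). Among the antiviral effectors 24 of 45 searched promoters (53.3%) held one, and among genes at least 2-fold lower 1.95% did. A kappa-B match was found in 4.68% of all promoters, in 7.32% of genes at least 2-fold higher and in 5 of 17 chemokine promoters (29.4%). The MEF2 element was in 1.54% of all promoters, 4.15% of genes at least 2-fold lower, 2.37% of genes at least 2-fold higher and 2.88% of genes at least 8-fold higher (6 of 208), and in 4 of 16 thick filament and 6 of 24 Z-disc genes (25% each). The CArG box was in 1.26% of all promoters and in 3 of 24 Z-disc genes (12.5%). It was in 1.95% of genes at least 2-fold lower, 1.4% of genes at least 2-fold higher and 1.92% of genes at least 8-fold higher (4 of 208). For the TEAD core the shares were 9.88% of all promoters, 14.5% of genes at least 2-fold lower and 11.1% of genes at least 2-fold higher, so the lower genes held it more often than the higher ones. The listed YAP and TEAD targets held it in 5 of 17 promoters (29.4%) and the thick filament genes in 5 of 16 (31.2%). These shares are descriptions, and a match is not a measured binding site.

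**Figure D1:**
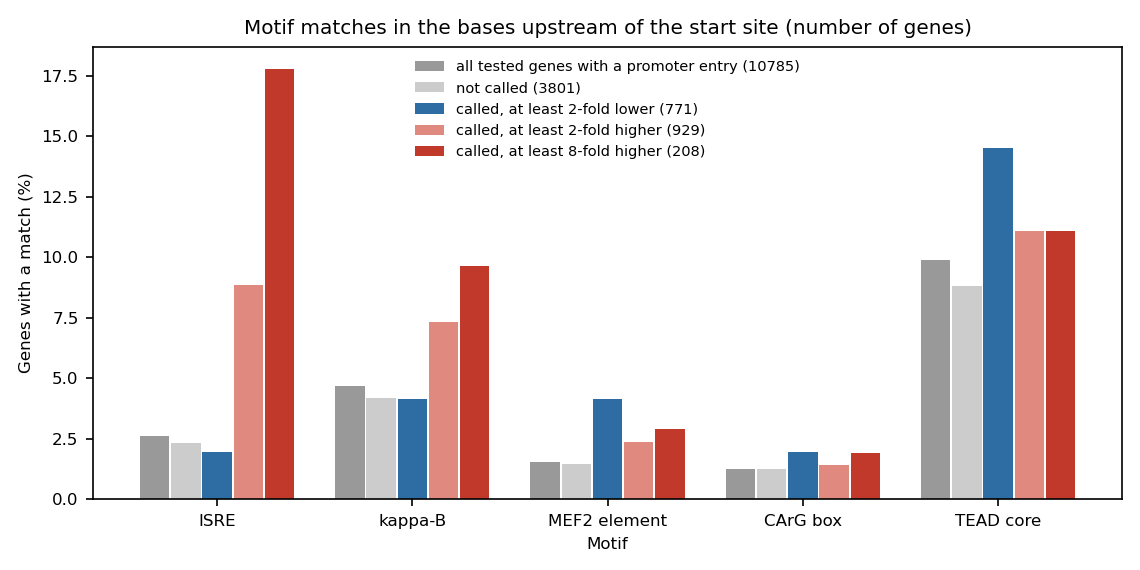
Share of genes (%, vertical axis) with at least 1 match to each motif in the 250 bases upstream of the start site, for all tested genes, uncalled genes, and genes called at least 2-fold lower, 2-fold higher or 8-fold higher in Yap1 WT. The ISRE share is 17.8% in genes at least 8-fold higher against 2.59% in all genes, and the MEF2 element share is 4.15% in genes at least 2-fold lower against 1.54% in all genes.

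Interferon-response genes rose broadly. Cells detect foreign RNA and DNA with cytosolic and endosomal sensors, the sensors switch on interferon regulatory factors and type I interferon, and interferon acts through JAK kinases and transcription factors such as STAT2 and IRF9 on genes that block viral replication. Of 19 sensors and adaptors tested, 16 rose and 2 fell (median log2 fold change 1.72). Of 22 signalling genes 14 rose and 1 fell (median 0.50), and of 56 antiviral effectors 51 rose, all of them at least 2-fold, and 1 fell (median 3.81, which is the same when the 2 members with no read in the GFP group are set to the bound that 3 reads give).

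Among the sensors, Tlr2, a surface receptor for lipopeptides, was 4.02, 4.13 and 4.08 CPM with GFP and 77.5, 74.9 and 81.5 CPM with Yap1 WT. The groups were far apart and the libraries within each nearly level (log2 fold change 4.25 ± 0.08, 19.1-fold, edgeR adjusted p 1.05e-12). Ddx58, the RNA helicase RIG-I, was 17.2, 17.9 and 18.2 CPM with GFP and 163, 183 and 197 CPM with Yap1 WT (log2 fold change 3.35 ± 0.10). Ifih1 (MDA5) rose by a log2 fold change of 3.39, and Eif2ak2, the RNA-activated kinase PKR that halts translation, went from 37.1, 34.3 and 31.9 CPM to 230, 274 and 267 CPM, 7.46-fold. The DNA sensor Cgas rose by a log2 fold change of 1.72 and Tlr3 by 0.94. The adaptors that pass on the RNA and DNA signals moved the other way: Mavs, on the mitochondrial surface, fell from a mean of 42.8 to 22.3 CPM (log2 fold change -0.94) and Sting1 from 13.5 to 8.96 CPM (-0.59).

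Among the signalling genes the transcription factor Irf7 (chr1:214249388-214252909, minus strand, rn6), which amplifies interferon production, rose strongly. It was 4.58, 2.71 and 3.40 CPM with GFP and 266, 404 and 367 CPM with Yap1 WT, with no overlap and with Yap1 WT library 1 the lowest of its group. The rise was 96.9-fold (log2 fold change 6.60 ± 0.24, edgeR adjusted p 2.11e-10). Factors that act downstream of the interferon receptor rose less: Stat2 from 46.8, 50.8 and 50.7 CPM to 210.2, 206 and 232 CPM, and Irf9 with a log2 fold change of 2.08. Jak2 rose (1.41) and so did Ifnar2 (0.40). The other receptor chain, Ifnar1, did not pass the test (0.12), but it rose with library size scaling (0.26, edgeR adjusted p 0.00538). Irf3, the factor that acts before interferon is made, fell (-0.29), though not with library size scaling (adjusted p 0.0863, edgeR). The interferon beta gene Ifnb1 had too few reads to be tested.

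The effectors included some of the largest rises of the comparison. Ifit3, which helps the IFIT proteins hold foreign RNA, went from 1.53, 0.880 and 1.02 CPM to 121, 165 and 168 CPM (log2 fold change 7.04 ± 0.24, 131-fold), and Oasl, which enhances RIG-I signalling, from 2.15, 1.42 and 2.24 CPM to 208, 310 and 285 CPM. No GFP library came near a Yap1 WT library for either gene. Oas1g and Oas2, which make the messenger that activates RNase L, had no read in the GFP group and 459 and 360 reads in the Yap1 WT group. With a floor of 3 reads for the GFP group they were at least 189-fold and at least 149-fold higher. Ddx60, a helper of RIG-I, rose from 0.694, 0.541 and 0.204 CPM to 41.1, 42.8 and 46.8 CPM. Oas1g and the other Oas1 genes are close paralogs, and the division of reads among them is uncertain.

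Families that include effector genes differed in how evenly they moved. All 5 guanylate binding proteins, GTPases that attack pathogen-containing vacuoles, rose with a median log2 fold change of 5.56. Gbp5 (chr2:248178441-248196873, plus strand) was 2.36, 2.44 and 2.65 CPM with GFP and 96.3, 89.7 and 108 CPM with Yap1 WT, a 39.3-fold rise (log2 fold change 5.30 ± 0.11, edgeR adjusted p 2.39e-12). Of 12 PARP genes, which attach ADP-ribose, 8 rose and 2 fell: the antiviral members Parp14 (log2 fold change 3.87), Parp9 (3.10), Parp12 (2.76) and Parp10 (2.27) rose, whereas Parp1, the main DNA repair member, fell from 203, 202 and 199 CPM to 90.7, 78.2 and 82.8 CPM (-1.26 ± 0.06). Of 42 tripartite motif genes, many of them ubiquitin ligases, 21 rose and 8 fell (median 0.26), led by Trim25 (2.68), which activates RIG-I, and Trim21 (2.51), with the muscle member Trim72 falling (-1.81). Of 11 genes with Irf symbols 6 rose and 3 fell, the falls near the background share. This set mixes interferon regulatory factors with genes of IRF2-binding proteins, such as Irf2bpl and Irf2bp2.

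**Figure D2:**
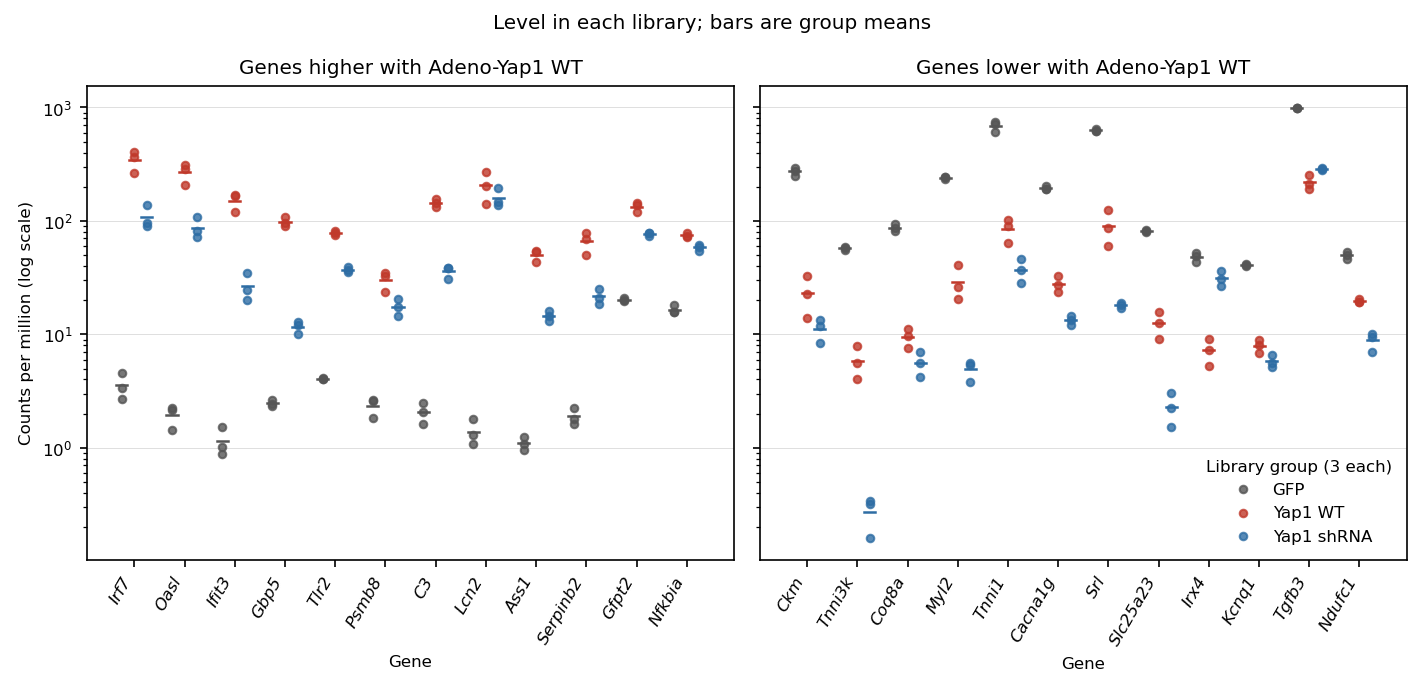
Level of 24 named genes in every library (CPM, log scale), with GFP in grey, Yap1 WT in red and Yap1 shRNA in blue, 1 point per library and short bars at the group means. For each gene the 3 Yap1 WT points are all above (left panel) or all below (right panel) the 3 GFP points, and the Yap1 shRNA points lie on the same side of GFP.

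The genes that display peptides to T cells rose as well: 21 of 24 class I presentation genes rose and none fell (median log2 fold change 1.74), 17 of them at least 2-fold. Psmb8, a catalytic subunit of the immunoproteasome, was 2.57, 2.64 and 1.84 CPM with GFP and 23.8, 32.6 and 34.5 CPM with Yap1 WT (12.8-fold, or 3.68 ± 0.19 in log2, edgeR adjusted p 4.33e-09), and Psmb9 (2.89) and Psmb10 (2.46-fold) rose with it. Nlrc5, the transactivator of class I genes, rose by a log2 fold change of 3.28 and the class I gene RT1-S3 by 3.07. The peptide transporter gene Tap1 went from a mean of 16.4 to 110 CPM and B2m, the invariant light chain, from 542 to 1280 CPM. The chaperones Canx and Calr and the proteasome activator Psme1 did not pass the test. Canx did rise with library size scaling (0.19, edgeR adjusted p 0.00234) and Calr on log2(TPM + 1) (0.12, limma-trend adjusted p 0.0276). RT1 genes are close paralogs, so the share of reads given to RT1-S3 is uncertain.

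Secreted inflammatory signals rose alongside. Of 22 chemokines and chemokine receptors 20 rose, all 20 at least 2-fold, and 1 fell (median log2 fold change 4.63). Cxcl12, which retains stem and stromal cells, was 55.4, 52.0 and 57.8 CPM with GFP and 205, 223 and 211 CPM with Yap1 WT (log2 fold change 1.95 ± 0.08). Every Yap1 WT library was above every GFP library, and the mean with Yap1 shRNA was 81.7 CPM. Rises were also seen for the leukocyte attractants Ccl20 (3.12), Cx3cl1 (2.50) and Cxcl16 (2.25), and Ccl5 went from 2 reads to 423 (a ratio of 262, with a 95% exact counting interval of 72 to 2170, both GFP reads being in library 1). The scavenging receptor Ackr4 was the member that fell, from 6.18, 7.24 and 7.95 CPM to 1.16, 0.770 and 0.940 CPM (-2.88 ± 0.27), whereas the scavenger Ackr3 rose (1.26). Intervals of this kind cover counting error only.

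Of 38 cytokines and receptors 28 rose and 5 fell (median 0.90). Il6 was 0.347, 0.203 and 0.0680 CPM with GFP and 10.5, 15.9 and 14.2 CPM with Yap1 WT, low but separate (62.5-fold, log2 fold change 5.97 ± 0.34, edgeR adjusted p 1.19e-08). Il1a rose with a log2 fold change of 5.40, and the neutrophil growth factor Csf3 went from 1 to 363 reads (ratio 449, interval 80.1 to 17800), the 1 GFP read being in library 3. Csf1, the macrophage growth factor, rose from a mean of 210 to 572 CPM. Among the gp130 family, Lif (2.17) and the receptor Osmr (2.20) rose, and the receptor Il11ra1 fell (-0.76). Il15, which sustains natural killer cells, fell from 25.3, 26.3 and 27.8 CPM to 9.27, 7.44 and 9.23 CPM (-1.61 ± 0.12).

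NF-kappa-B is a known inducer of many genes of this kind. Its subunits are held by IkB proteins until a kinase complex releases them, and it then also induces its own inhibitors. Its activity was not measured here, and its part in these rises was not tested. Of 32 subunits and regulators 30 rose and none fell, 10 of them at least 2-fold (median 0.77). The subunits moved little (Rela 0.23, Nfkb1 0.46), and the feedback inhibitors moved more. Nfkbia, the inhibitor IkB-alpha, went from 15.8, 15.9 and 18.0 CPM to 72.3, 78.8 and 72.9 CPM (4.51-fold, log2 fold change 2.17 ± 0.07, edgeR adjusted p 1.28e-10). Nfkbiz, a nuclear coregulator, rose by 2.85, the RNase Zc3h12a, which degrades cytokine mRNA, by 2.55, and the NOD adaptor kinase Ripk2 by 2.32. Among 14 adhesion receptors for leukocytes 10 rose and 2 fell, with Vcam1 going from 3.12, 3.45 and 2.85 CPM to 25.2, 24.97 and 28.8 CPM (8.35-fold) and Icam1 rising 3.02-fold. The checkpoint ligand Cd274 rose by 3.25 from 0.763, 1.08 and 0.815 CPM.

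Several innate effector enzymes and secreted proteins rose strongly. Complement C3 (chr9:9721137-9747084, plus strand) was 2.08, 2.50 and 1.63 CPM with GFP and 134, 155 and 144 CPM with Yap1 WT (6.11 ± 0.13 on the log2 scale, a 69.3-fold rise, edgeR adjusted p 2.25e-12). C1s, a protease that starts the classical pathway, rose 10.2-fold, and so did inhibitors that limit complement, Serping1 (log2 fold change 1.87) and Cd55 (2.02). Lcn2, an iron-scavenging lipocalin, went from 1.80, 1.29 and 1.09 CPM to 141, 270 and 205 CPM, with Yap1 WT library 2 the highest and library 1 the lowest (7.19 ± 0.31, 146-fold). Nos2, inducible nitric oxide synthase, rose from 0.0694, 0.135 and 0.0680 CPM to 11.3, 12.3 and 14.2 CPM, and Ass1, which resupplies its substrate arginine, from 1.25, 1.08 and 0.951 CPM to 43.7, 54.6 and 53.0 CPM (45.7-fold). Ptgs2, cyclooxygenase 2, rose 7.48-fold. Of 16 serpins 13 rose and 2 fell, including Serpinb2, an inhibitor of urokinase, at 1.80, 1.62 and 2.24 CPM with GFP and 49.7, 78.5 and 69.5 CPM with Yap1 WT (34.6-fold). Of 10 macrophage and leukocyte markers tested 3 rose and 1 fell (median 0.03), and their summed level was 99.1 to 119 CPM with GFP and 128 to 129 CPM with Yap1 WT, higher in every Yap1 WT library. Ptprc, Cd68, Csf1r and Lyz2 did not pass the test, C1qa fell (-1.96), Cd14 rose (0.76) and Adgre1 rose from 2.57 to 12.2 CPM. The part of these cells in the changes was not tested. Cell death genes rose moderately: 22 of 38 rose and 6 fell (median 0.34), with the necroptosis pair Ripk3 (1.16) and Mlkl (1.13) among the rises and Bok (-1.55) and Bcl2 (-0.96) among the falls.

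**Figure D3:**
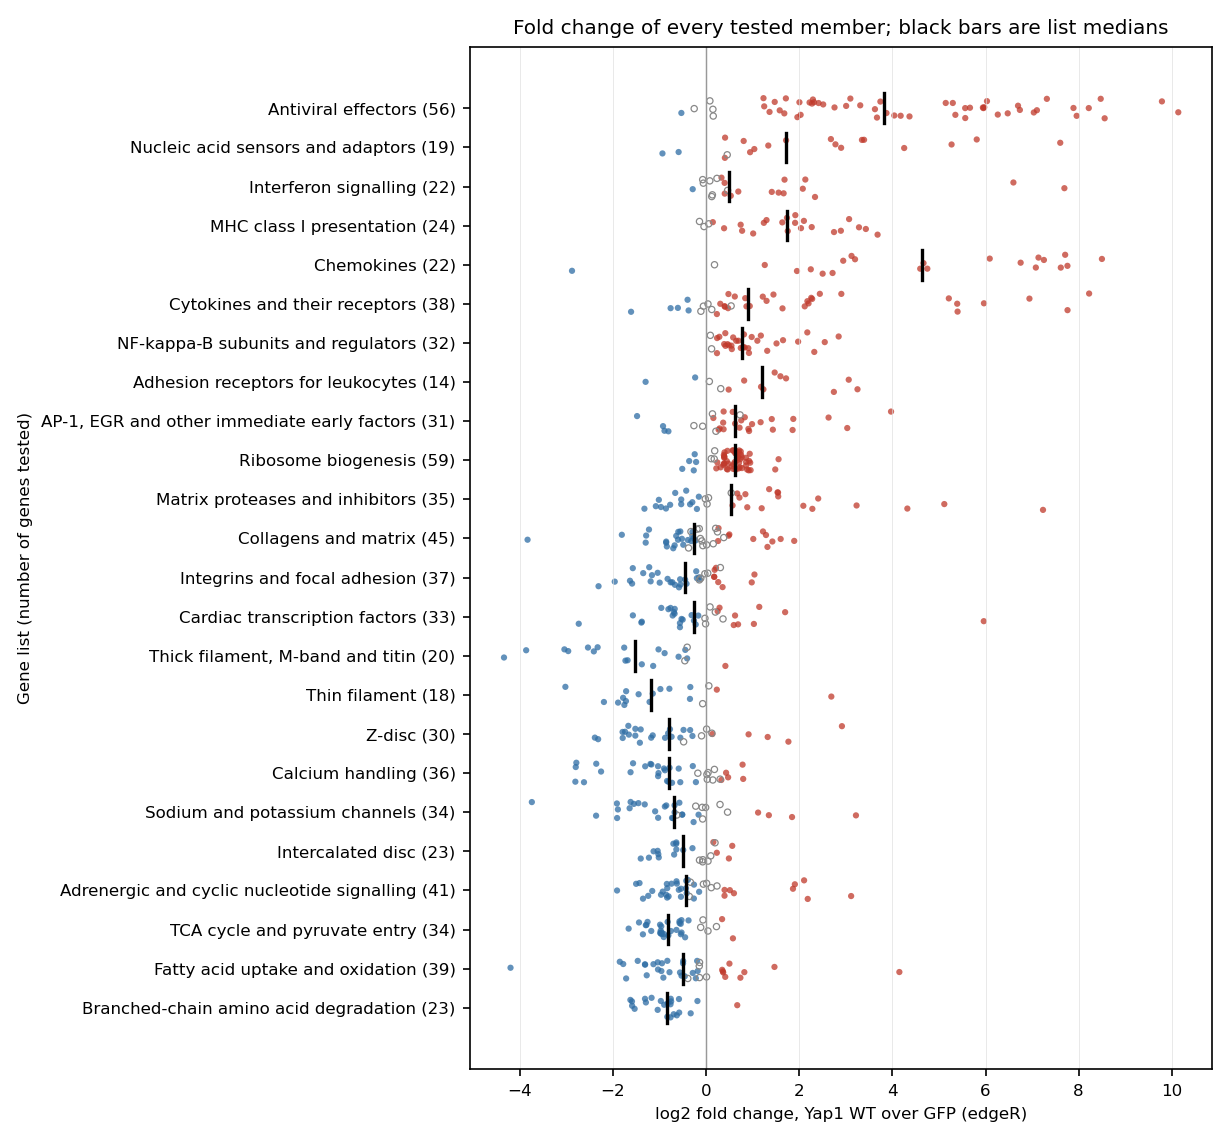
Log2 fold change of Yap1 WT over GFP (horizontal axis, edgeR) for every tested member of 24 gene lists, with red points called higher, blue points called lower, open points not called, and black bars at the list medians. Antiviral effectors and chemokines extend past 8 (members with no read in the GFP group are drawn at the fitted value, which depends on the prior count), and the thick filament list has the lowest median, -1.53.

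The contractile apparatus fell in every compartment listed. Myosin and its binding proteins form the thick filament, actin with troponin and tropomyosin the thin filament, and the Z-disc anchors the thin filaments and relays stretch. Of 20 thick filament, M-band and titin genes 17 fell and 1 rose (median log2 fold change -1.53), of 18 thin filament genes 14 fell and 2 rose (-1.18), and of 30 Z-disc genes 21 fell and 5 rose (-0.80). The background share of called falls is 31.8%. These falls moved with the falls of the 10 cardiomyocyte markers given above, and the 2 sets share genes.

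Myl2, the ventricular myosin regulatory light chain, was 244, 243 and 233 CPM with GFP and 40.5, 20.5 and 26.2 CPM with Yap1 WT (8.24-fold lower, log2 fold change -3.04 ± 0.16, edgeR adjusted p 5.83e-09). Yap1 WT library 2 was the lowest and library 1 the highest, and none reached the GFP range. Myom1, an M-band crosslinker, went from 387, 375 and 356 CPM to 82.3, 46.8 and 63.3 CPM, and titin (Ttn) and Mybpc3 fell less, by 1.38 and 1.76 on the log2 scale. The exception in this list was the ubiquitin ligase Trim54, which rose (0.41). In the thin filament the fetal troponin Tnni1 fell from 611, 750.4 and 710.2 CPM to 102, 63.8 and 89.7 CPM, 8.12-fold, and cardiac actin Actc1, among the most abundant transcripts, from 15600, 16200 and 17090 CPM to 4522, 2436 and 3720 CPM (-2.19 ± 0.18). Neb rose on counts (2.69) but by only 0.24 on log2(TPM + 1), and had a mean of 3.45 CPM. In the Z-disc Ldb3 fell from 623, 661 and 643 CPM to 166, 86.6 and 134 CPM, and the myosin methyltransferase Smyd1 by 2.39 and the myosin chaperone Unc45b by 1.74 on the log2 scale. The stress chaperone Bag3 rose (0.91).

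Excitation and calcium handling fell in parallel. Of 36 calcium handling genes 24 fell and 5 rose (median -0.80). Cacna1g, a T-type calcium channel of pacemaker and fetal cells, was 202, 193 and 190.2 CPM with GFP and 32.7, 23.8 and 27.0 CPM with Yap1 WT (log2 fold change -2.81 ± 0.09, edgeR adjusted p 8.18e-11). Ryr2, the calcium release channel, went from 482, 433 and 403 CPM to 111, 62.2 and 83.5 CPM, and Srl, the sarcoplasmic reticulum protein sarcalumenin, from 614, 649 and 622 CPM to 124, 60.6 and 86.1 CPM. The L-type channel Cacna1c (-1.02) and the exchanger Slc8a1 (-1.31) fell less, and Trdn rose (0.78).

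Of 34 sodium and potassium channel genes 23 fell and 4 rose (median -0.68). Kcnq1 and Kcnh2, which carry the repolarizing currents, fell from 39.9, 41.4 and 41.0 CPM to 8.03, 6.84 and 8.89 CPM and from 47.1, 43.8 and 44.9 CPM to 13.7, 11.5 and 11.3 CPM. The pacemaker channel Hcn4 fell by 1.03 on the log2 scale, while the neuronal channel Kcnq5 rose (1.99). The wider family of 50 potassium channel genes split evenly, 18 higher and 16 lower, and its median changed sign with the setting, from 0.10 to -0.63 with the stricter expression filter. At the intercalated disc 13 of 23 genes fell and 4 rose: Popdc2 (-1.40), desmoplakin Dsp (-1.03) and vinculin Vcl (-1.04) fell, and the gap junction gene Gja1 rose from a mean of 163 to 229 CPM.

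Of 41 adrenergic and cyclic nucleotide genes 26 fell and 9 rose (median -0.43). Adora1 (-1.91), Prkaca (-1.36) and the beta-1 receptor Adrb1 (-0.83) fell. Rgs2, a brake on Gq signalling, rose from 23.4, 22.5 and 23.3 CPM to 87.6, 106 and 104 CPM, and the angiotensin receptor Agtr1a from 5.55, 6.43 and 6.73 CPM to 21.3, 23.9 and 23.1 CPM. Both genes therefore separated the groups without overlap. The natriuretic peptides Nppa (-0.63) and Nppb (-0.26) fell, the second only in some settings (edgeR adjusted p 0.0921 without GFP library 2, 0.0665 without GFP library 3 and 0.109 without Yap1 WT library 2).

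Of 33 cardiac transcription factors 19 fell, 4 of them at least 2-fold, and 9 rose (median -0.26). Irx4, which marks ventricular identity, was 43.2, 52.6 and 49.5 CPM with GFP and 9.10, 5.30 and 7.35 CPM with Yap1 WT (6.66-fold lower, -2.74 ± 0.15). Its mean with Yap1 shRNA was 31.2 CPM, and the direct difference between the Yap1 groups was -2.10 (edgeR adjusted p 2.59e-07). Gata4 fell from a mean of 331 to 207 CPM, Nkx2-5 by 0.56, Tbx20 by 0.72, Mef2c by 0.22 and the coactivator Myocd by 0.96 on the log2 scale. The call for Mef2c was lost with library size scaling (edgeR adjusted p 0.246). Hey1, a Notch-responsive repressor, went from 3 to 176 reads (ratio 72.6, with an exact counting interval of 24.4 to 355).

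Energy metabolism fell most evenly in the subunits of oxidative phosphorylation. All 35 tested NADH dehydrogenase (complex I) subunit genes fell, 14 of 16 cytochrome oxidase (complex IV) genes and all 16 ATP synthase genes, with medians of -0.89, -0.83 and -1.05 and no rise among them. The deposited table holds no gene of the mitochondrial chromosome, so only subunits encoded in the nucleus were tested. Ndufc1 fell from 46.1, 53.2 and 49.8 CPM to 20.4, 19.2 and 19.3 CPM (2.53-fold, -1.34 ± 0.09, edgeR adjusted p 4.19e-08), Ndufa3 by 1.23, Ndufb4 by 1.13 and Ndufb10 by 1.06 on the log2 scale. Cox7b went from 274, 282 and 270 CPM to 126, 93.5 and 109 CPM, and Atp5mc1, the rotor ring subunit, from 275, 315 and 318 CPM to 133, 108 and 118 CPM. Known regulators of these genes did not all move one way. The coactivator Ppargc1a fell from 30.5, 33.2 and 30.7 CPM to 14.4, 13.8 and 14.8 CPM. The receptor Ppara fell from a mean of 25.7 to 9.46 CPM. The mitochondrial DNA factor Tfam (0.37) and the receptor Esrra (0.14) rose slightly. The Esrra call was lost with DESeq2 (adjusted p 0.0516) and without GFP library 1 (edgeR adjusted p 0.125). The part of these regulators in the falls was not tested. Of 28 nuclear receptors and coactivators 12 rose and 11 fell, and Pparg, the receptor of the fat cell programme, rose from 2.36, 1.69 and 1.97 CPM to 9.27, 15.2 and 10.3 CPM.

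Of 34 genes of the tricarboxylic acid cycle and pyruvate entry 28 fell and 2 rose (median -0.82). Mdh1, cytosolic malate dehydrogenase, fell from 506, 565 and 534 CPM to 235, 182 and 209.5 CPM (-1.36 ± 0.08, edgeR adjusted p 1.78e-08), and the pyruvate carrier Mpc2 (-1.44), the dehydrogenase core Dlat (-1.28) and its inhibitory kinase Pdk2 (-1.66) fell together. Malic enzyme Me2 (0.58) and pyruvate carboxylase Pc (0.34) were the 2 that rose. In branched-chain amino acid degradation 22 of 23 genes were lower and 1 higher (median -0.83). Mccc2, of leucine breakdown, went from 76.5, 82.3 and 75.4 CPM to 30.6, 23.4 and 21.7 CPM, and Bckdhb (-1.59), Aldh6a1 (-1.54) and the mitochondrial transaminase Bcat2 (-1.29) fell, whereas the cytosolic transaminase Bcat1 rose from a mean of 233 to 371 CPM. Of 39 fatty acid genes 25 fell and 9 rose (median -0.49). Among mitochondrial carriers, Slc25a23, an ATP-magnesium exchanger, fell from 80.8, 80.5 and 83.7 CPM to 15.9, 9.06 and 12.5 CPM, and the iron importer Slc25a37 rose from 23.5, 23.8 and 23.9 CPM to 67.0, 80.0 and 73.8 CPM.

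Many enzymes and structural proteins come as a form typical of striated or oxidative muscle and another form. These pairs were compared as the first form's share of the pair's summed TPM, called the muscle form's share. For lactate dehydrogenase and the monocarboxylate transporters (Slc16a1 and Slc16a3) the muscle form is that of oxidative muscle, and the other form is also made in muscle. In 17 of 20 pairs the muscle form's share was lower in all 3 Yap1 WT libraries than in all 3 GFP libraries. For creatine kinase (Ckm and Ckb) the share went from 57.6% (range 56.3 to 59.8) to 17.6% (13.4 to 21.5), for lactate dehydrogenase (Ldhb and Ldha) from 46.1% to 20.7%, for alpha-actinin (Actn2 and Actn1) from 69.9% to 37.1% and for the glucose transporters Slc2a4 and Slc2a1 from 33.7% to 14.5%. The muscle form fell in 17 pairs by the count test, while the other form rose in 3 (Slc2a1, Cpt1a and Actn1) and fell in 16. The call for Actn1 was lost without GFP library 2 or Yap1 WT library 1 (edgeR adjusted p 0.0618 and 0.0583). With library size scaling the falls of Pfkp, Pgam1, Fabp5 and the muscle form Cpt1b were lost (edgeR adjusted p 0.352, 0.11, 0.34 and 0.0678), and Eno1 and Flnc rose, so these counts depend on the scaling. The hexokinases ran the other way, with Hk2 taking 6.65% with GFP and 11.3% with Yap1 WT, and so did the filamins, with Flnc going from 17.8% to 28.7%. Ckm alone fell from 251, 295 and 276 CPM to 32.4, 13.9 and 22.7 CPM (11.8-fold, -3.57 ± 0.19, edgeR adjusted p 6.91e-09).

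**Figure D4:**
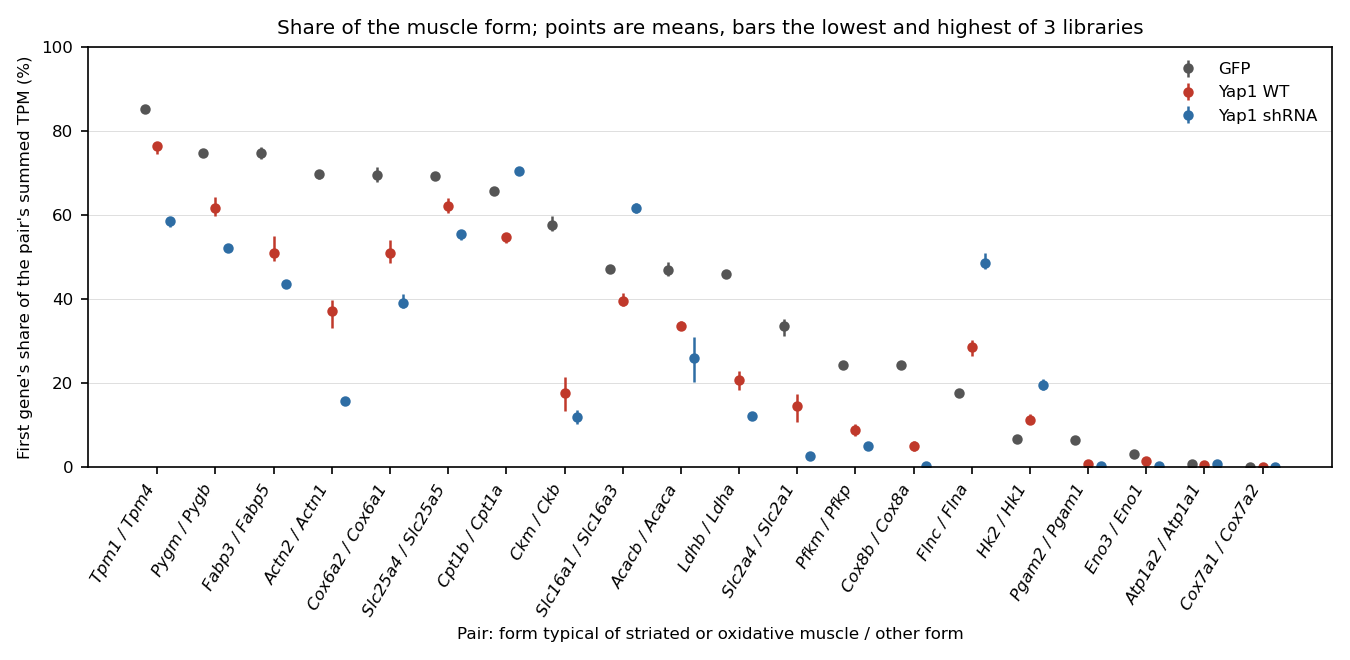
Share of the muscle form in the summed TPM of 20 gene pairs (%, vertical axis); points are means and bars run from the lowest to the highest of 3 libraries, with GFP in grey, Yap1 WT in red and Yap1 shRNA in blue. Creatine kinase (Ckm / Ckb) drops from 57.6% to 17.6% from GFP to Yap1 WT, and Hk2 / Hk1 and Flnc / Flna rise.

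The parts of the protein synthesis machinery moved differently. Of 59 ribosome biogenesis genes, which make and process ribosomal RNA in the nucleolus, 51 rose and 5 fell (median 0.61), but only 2 rose at least 2-fold. Rrp12, a processing factor, was 50.3, 47.4 and 44.0 CPM with GFP and 117, 151 and 128 CPM with Yap1 WT (2.80-fold, 1.48 ± 0.09, edgeR adjusted p 1.74e-08), and nucleolin (Ncl) rose by 0.77. Of 17 cytosolic aminoacyl-tRNA synthetases 16 rose and none fell (median 0.50): Cars went from 104, 102 and 103 CPM to 189.6, 240.0 and 198 CPM and Sars1 from 293, 294 and 299 CPM to 436, 582 and 490.2 CPM. The 16 mitochondrial synthetases had 1 rise and 7 falls, with 8 not called (median -0.27), among them Tars2 (-0.59) and Lars2 (-0.54). Of 53 genes with initiation factor (Eif) symbols 30 rose and 6 fell, with 2 at least 2-fold higher. Their largest rise was Eif2ak2 (2.9), the RNA-activated kinase described above. Of 53 DEAD and DEAH box helicases 32 rose and 5 fell, with 3 at least 2-fold higher. This family also holds genes of the interferon response, among them Ddx58 and Ddx60, its largest rise (6.48).

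The ribosomal proteins themselves did not follow the biogenesis factors. Of 76 cytosolic ribosomal protein genes 4 rose and 10 fell, and the median of -0.04 became 0.10 with library size scaling and 0.14 on TPM. Rpl34 fell from 500.0, 467 and 454 CPM to 275, 293 and 296 CPM. Of 74 mitochondrial ribosomal protein genes 44 fell and 3 rose (median -0.27), with Mrps36 going from 66.0, 67.9 and 66.9 CPM to 32.4, 25.7 and 33.3 CPM. Of 37 proteasome subunits 27 rose and 1 fell (median 0.29). Apart from the immunoproteasome subunits the rises were small: Psmd11, a lid subunit, went from 92.9, 94.5 and 95.1 CPM to 143, 172 and 165 CPM.

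**Figure D5:**
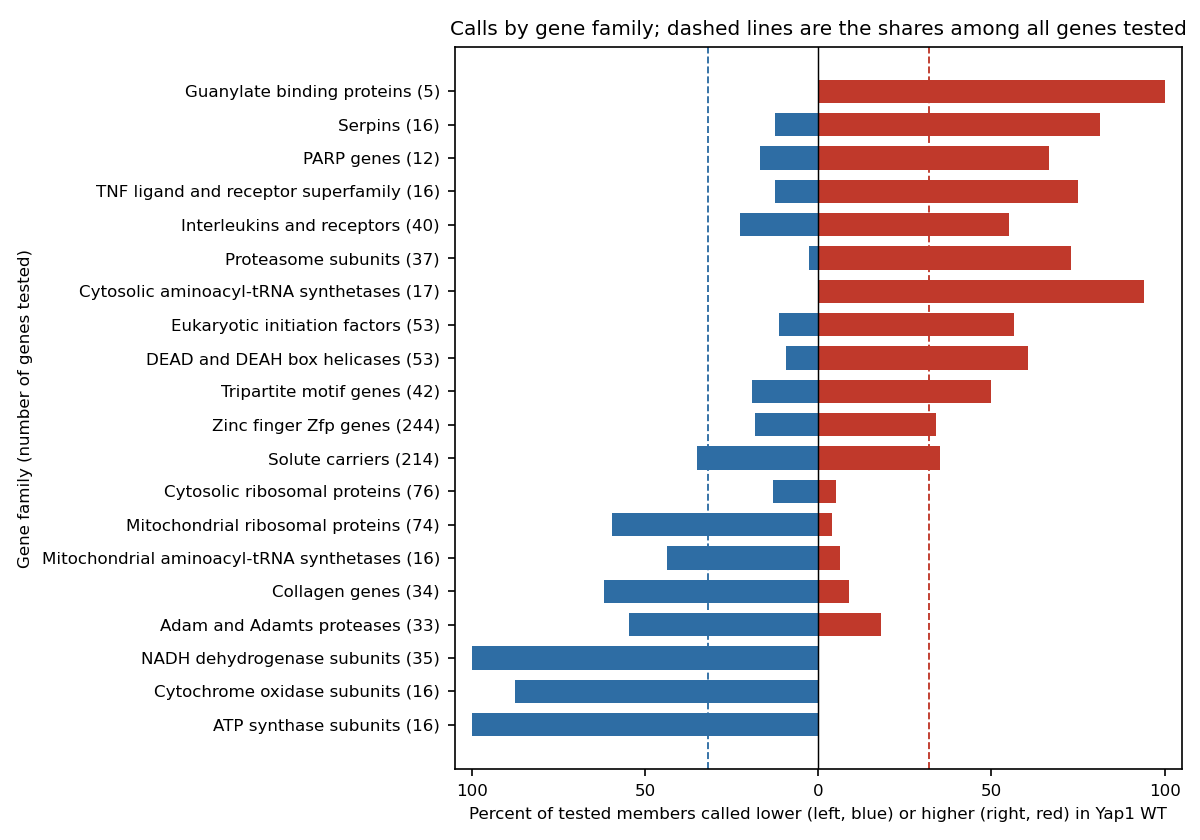
Percent of tested members of 20 gene families called higher (right, red) or lower (left, blue) in Yap1 WT against GFP, with dashed lines at the shares among all genes tested, 32% and 31.8%. All 5 guanylate binding proteins were called higher, and all 35 complex I and all 16 ATP synthase subunits tested, all encoded in the nucleus, were called lower.

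Immediate early genes mostly rose, and growth factors did not move one way. Of 31 AP-1, EGR and related factors 22 rose and 4 fell (median 0.62). Fosl1, an AP-1 subunit, went from 7.15, 6.23 and 7.27 CPM to 51.3, 63.1 and 54.5 CPM (8.17-fold, 3.03 ± 0.09), and Klf5 from 11.3, 9.41 and 11.6 CPM to 34.8, 43.0 and 40.7 CPM. Myc rose from a mean of 48.4 to 129 CPM, whereas Klf2, a factor of quiescent endothelium, fell (-1.48). Growth factors were mixed, with 14 rises and 16 falls among 38. Gdf15, a stress-induced hormone, was 32.8, 38.6 and 37.9 CPM with GFP and 240.3, 290.4 and 277 CPM with Yap1 WT (7.40-fold, edgeR adjusted p 3.8e-11), and Tgfa (2.27), Hgf (2.15) and Bmp2 (1.58) rose, while Nrg1 (-1.20), Fgf1 (-1.36) and Bmp4 (-1.39) fell. In 49 cell cycle genes 19 rose and 15 fell (median 0.00), and the replication helicase gene Mcm3 rose from 46.9, 47.7 and 48.9 CPM to 106, 121 and 109 CPM. The 23 listed YAP and TEAD targets had 10 rises and 9 falls (43.5% and 39.1%, median 0.12), beside 32% and 31.8% of all genes tested. At least 2-fold higher were 3 of them (13%) and at least 2-fold lower 1 (4.35%), beside 9.19% and 7.39% of all genes. Their summed level was 11240 to 11540 CPM with GFP and 5996 to 6637 CPM with Yap1 WT. Most of that sum was 2 abundant targets that fell, so it does not describe the set. Ankrd1, a stretch-responsive nuclear cofactor, went from a mean of 5840 to 1849 CPM (-1.66). Ccn2, a matricellular protein, went from 2880 to 1740 CPM (-0.73).

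The matrix changed in its composition. Of 34 collagen genes 21 fell and 3 rose (median -0.54). Col1a1, the main fibrillar collagen, went from a mean of 12538 to 10394 CPM (-0.27, a call lost with library size scaling, edgeR adjusted p 0.143), while Col8a2 fell from 19.6, 18.1 and 16.9 CPM to 2.98, 2.82 and 2.22 CPM, Col11a1 from 283, 269 and 272 CPM to 130.2, 82.7 and 95.3 CPM and Col4a3 by 2.28 on the log2 scale. Col7a1, of anchoring fibrils, rose (2.19), as did the small proteoglycans Dcn, from 26.0, 28.6 and 26.8 CPM to 80.6, 126 and 95.4 CPM, and Lum (1.01), and the hyaluronan synthase Has2 (3.03-fold). Matrix proteases and inhibitors split into 17 rises and 14 falls among 35: the urokinase receptor Plaur (2.41), Mmp9 (2.28), Adamts8 (2.09) and Adam12, from 65.4, 55.5 and 61.4 CPM to 186.5, 173 and 172 CPM, rose, while Mmp15 (-1.32) and Adamts5 (-1.08) fell. Of 37 integrin and focal adhesion genes 24 fell and 8 rose (median -0.45), including the muscle integrin chaperone Itgb1bp2 at 113, 118 and 114 CPM with GFP and 27.6, 19.8 and 21.8 CPM with Yap1 WT. In the TGF-beta list 16 of 37 rose and 13 fell. The ligand Tgfb3 was 999, 986 and 997 CPM with GFP and 254, 191 and 213 CPM with Yap1 WT (4.53-fold lower, -2.18 ± 0.08, edgeR adjusted p 3.78e-10), Tgfb2 did not pass the test (-0.03), Tgfb1 rose (0.37) and the inhibitory Smad7 rose (1.32).

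Among other families, Gfpt2, a rate-limiting enzyme of the hexosamine pathway that branches from glycolysis, rose from 21.1, 20.2 and 19.6 CPM to 120.5, 143 and 137 CPM (6.59-fold, edgeR adjusted p 2.43e-11). The drug efflux pump Abcb1b rose from 25.3, 22.1 and 21.8 CPM to 139, 149.8 and 138 CPM within a family of 40 ABC transporters that had 13 rises and 18 falls. The sterol reductase Tm7sf2 fell from 44.8, 46.8 and 48.0 CPM to 10.9, 9.23 and 11.1 CPM, and acetyl-CoA synthetase Acss2 from 122, 128 and 130 CPM to 49.1, 40.8 and 48.6 CPM. Of 214 solute carriers 75 rose and 75 fell, close to the background share on both sides.

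The KEGG, Reactome and Gene Ontology annotation deposited with the table gave 301, 691 and 1605 terms with 15 to 200 tested genes, and the terms named here are a selection from the 8 per source and direction with the largest shares of members called at least 2-fold in that direction, skipping near-duplicates. Terms share many genes, so their counts are not independent. Among KEGG pathways those higher included graft-versus-host disease (23 of 28 genes higher, 20 at least 2-fold, with Il1a and Il6), viral protein interaction with cytokine receptors (28 of 36 higher, median 2.83), antigen processing and presentation (34 of 54 higher) and complement and coagulation (26 of 43 higher, 11 lower). Those lower included steroid biosynthesis (13 of 18 lower), cardiac muscle contraction (55 of 66 lower, median -0.95), propanoate metabolism (29 of 30 lower, median -0.89) and valine, leucine and isoleucine degradation (37 of 44 lower). In Reactome the chemokine receptor set (17 of 20 higher, median 3.03), immunoregulatory interactions (35 of 50 higher, median 1.24) and the arachidonic acid set (10 of 21 higher, 5 lower, with Ptgs2) stood on the higher side. Cholesterol biosynthesis (18 of 21 lower, median -1.08), striated muscle contraction (19 of 21 lower, median -1.27), smooth muscle contraction (21 of 28 lower), mitochondrial biogenesis (19 of 23 lower) and collagen chain trimerization (13 of 19 lower) stood on the lower side. In Gene Ontology, lymphocyte chemotaxis (14 of 15 higher, median 3.20), the response to interferon beta (24 of 31 higher, median 3.05) and negative regulation of viral genome replication (27 of 35 higher) were among the rises. The cholesterol biosynthetic process (21 of 25 lower), proton transport coupled to ATP synthesis (14 of 15 lower), sarcomere organization (30 of 39 lower) and regulation of heart rate (23 of 30 lower, median -1.13) were among the falls.

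Markers of the other cell types that such cultures can hold moved in different directions. Of 10 smooth muscle and pericyte markers 8 fell and 1 rose, and their summed level went from 9017 to 9506 CPM with GFP to 3903 to 5312 CPM with Yap1 WT. Of 10 fibroblast markers 5 fell and 3 rose, and of 10 epicardial markers 7 fell and 2 rose (101 to 107 CPM summed with GFP and 90.7 to 93.9 CPM with Yap1 WT), with the mesothelial gene Upk3b falling from 13.1, 12.9 and 13.9 CPM to 4.39, 3.42 and 3.93 CPM. Of 9 endothelial markers 4 rose and 2 fell (90.1 to 101 CPM and 96.2 to 108 CPM). No erythroid marker had enough reads to be tested. Their part in the changes of the other lists was not tested.

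Set beside the Yap1 shRNA libraries, which share the medium but not a control hairpin, many of these genes were on the same side of GFP in both Yap1 groups. The direct test between Yap1 WT and Yap1 shRNA called 62.5% of genes, 31.2% higher and 31.3% lower in Yap1 WT. Antiviral effectors were higher in Yap1 WT than in Yap1 shRNA by a median log2 difference of 1.29 and class I genes by 0.85, whereas the NF-kappa-B list differed by a median of 0.01: Irf7 was at a mean of 108 CPM with Yap1 shRNA, Gbp5 at 11.7 CPM, Nfkbia at 58.4 CPM and Ripk2 at 147 CPM. Thick filament genes were also higher in Yap1 WT than in Yap1 shRNA, by a median of 1.51. Actc1, for example, had a mean of 405 CPM with Yap1 shRNA, below both other groups (direct difference 3.13). Immediate early genes were lower in Yap1 WT than in Yap1 shRNA (median log2 difference -1.15), with Fosl1 at 325 CPM and Csrnp1 at 526 CPM in Yap1 shRNA, and so were ribosome biogenesis genes (-0.53), with Rrp12 at 302 CPM. Tgfb3 stood at 285 CPM with Yap1 shRNA, close to Yap1 WT (direct difference -0.38), and Lcn2 at 161 CPM did not differ by the test (0.35, edgeR adjusted p 0.115).

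The Yap1 WT libraries differed among themselves more than the GFP libraries did. Over the 1000 most variable genes the first principal component held 85.7% of the variance and put the GFP libraries between -43.98 and -42.02 and Yap1 WT libraries 1, 2 and 3 at 36.99, 49.4 and 42.63. The second component held 4.6%, and on it the GFP libraries lay between 0.5811 and 1.239 and the Yap1 WT libraries at -18.41, 16.11 and -0.1934. Libraries 1 and 2 differed by 11.21 times the counting noise (chi-square per degree of freedom over genes), against 2.242 to 4.691 for the other pairs within groups. The order of the libraries differed between genes: among genes chosen after their values were seen, library 2 had the most Yap1, Irf7 and Lcn2 and the least Myl2, Ckm and Actc1, but also the least Gbp5, Tlr2 and Cx3cl1. With 3 libraries no relation between the Yap1 level and these genes was tested.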

How the data were processed

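Messenger RNA from 9 cultures of neonatal rat cardiomyocytes was sequenced on a BGISEQ-500 instrument, per the labels' protocols, which do not give the strand setting. Build rn6 and the tools RSEM 1.3.1, HISAT2, DESeq2 1.4.5 and Bowtie2 are named per the submitters' processing notes, with no role given. The deposited table holds estimated counts and TPM per gene and library, per the file headers, with the authors' own log2 fold changes and p-values and q-values, which were not used for any result. A second deposited table repeats its 36 value columns and was not used, and 0 per-sample columns were left without a sample.

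Expected counts were rounded to whole numbers. Genes passed edgeR's filterByExpr, libraries were scaled by TMM, and edgeR 4.0.16 (R 4.3.3) fitted a quasi-likelihood model to all 9 libraries by group. The difference of Yap1 WT minus GFP was tested with Benjamini-Hochberg adjustment over all 13708 genes, and a gene was called at an adjusted p under 0.05. CPM values use the TMM-scaled library sizes and are not corrected for gene length. Shares within gene pairs were computed on TPM, while sums over lists and remarks on abundance rest on CPM. The fitted biological variation between libraries was 7.18% of the level. For genes with 0 reads in a group the fold was computed against 3 reads over the group, and for 1 to 3 reads a ratio with an exact binomial interval is given.

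Members, lists and families were chosen with earlier results of these data known, so a list is described by counts and median beside the shares among all genes, without a test of its own. The named genes were the 30 largest rises and falls among called genes with at least 5 CPM in the higher group, no overlap between groups and a settled symbol, of which a selection is printed, plus up to 5 called members per list or family and further members given for their role, some chosen after their values were seen. Alternatives were 3 other scalings, DESeq2 1.42.0, limma 3.58.1 (voom on the counts and trend on log2(TPM + 1)), a stricter filter and none, a fit on 6 libraries, a replicate block and each library left out. Promoter sequences came from RefSeq (GRCr8), matched by gene to 10785 tested genes. Some genes of the lists are not reported here.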

Additional observations from a re-analysis of the deposited data

How the results depend on the processing

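The number of calls between Yap1 WT and GFP, 8751, moved by less than 1.5 times under every alternative run. Scaling by library size alone gave 5637 higher and 3344 lower, and limma-trend on log2(TPM + 1) gave 5419 higher and 2894 lower, of which 498 at least 2-fold lower. Under the stricter filter (5 CPM in 3 libraries, 11341 genes) 770 genes were at least 2-fold higher and 757 at least 2-fold lower. With that filter the median log2 fold change changed sign for the neural and glial markers (0.35), the potassium channel family (-0.63) and the cytochrome P450 family (-0.17), because fewer genes were tested. Leaving out each library in turn gave 7991 to 8657 calls, 4015 to 4193 higher and 3971 to 4464 lower, with 1180 to 1328 at least 2-fold higher and 945 to 1221 at least 2-fold lower. For Yap1 WT against Yap1 shRNA it gave 7934 to 8473 calls, 3906 to 4243 higher and 4028 to 4230 lower. With the replicate number as a block 4411 genes were higher and 4401 lower, and 534 of the 535 named genes kept their call (Esrra did not). Deviations from the group means had correlations of -0.0313 to 0.0939 between same-numbered libraries of different groups. Between libraries with different numbers they were -0.112 to 0.0559. With 3 libraries per group such small correlations cannot decide whether a number marks a shared isolation, which the labels do not say. No named gene called in the main fit changed direction. Calr, not called there, went from -0.05 to 0.12 with limma-trend (adjusted p 0.0276). Of the calls on named genes, DESeq2 lost 5, library size scaling 10 and limma-trend 14. Library size scaling gained 4 calls and limma-trend 5. Of the called named genes, limma-trend moved 84 by over 1.5 times; its pseudocount of 1 understates changes of genes at low levels, while Yap1 moved up.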
